A study of Mus musculus with 12 samples.

Results

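Chemokine ligands are small secreted proteins that set up gradients along which leukocytes migrate. This account follows the 35 chemokine ligand genes among the 27845 gene names of a mouse expression array, in regulatory T cells (Treg) sorted from tumours and spleens. A gene was taken when its name in the array files began with Ccl or Cxcl followed by a number, or was Xcl1, Cx3cl1, Pf4 or Ppbp, and it was represented by its brightest probe. Pf4 and Ppbp stand in the files as Cxcl4 and Cxcl7. RefSeq now names the Ccl21b probe Ccl21a and the Ccl27 probe Ccl27a, and both belong to sets of near-identical copies, so which copy was measured is uncertain.

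RNA was measured on 12 one-colour arrays in 4 groups of 3, and per the labels each population came from 3 experiments. All mice were C57BL/6, and MC38 is a mouse colon carcinoma line, implanted under the skin and harvested after 2 weeks as pooled established tumours. VERT-X mice carry an EGFP reporter of IL-10, and their tumour Treg were gated on CD25+CD120b+/low and divided into IL10+ and IL10- groups. FoxP3-EGFP mice gave total tumour Treg and, from mice without a tumour, spleen Treg, both gated on EGFP. Every sort first took CD45+, CD11b-low, CD3+CD4+ cells. Tumour bearing and tissue therefore cannot be told apart in the comparison with spleen, and neither can mouse line, gate and IL10 status in the comparisons of IL10+ or IL10- with total tumour Treg.

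The receptors of these ligands are G protein-coupled receptors on the migrating cell. Inflammatory ligands are made on demand by macrophages, stromal cells and activated lymphocytes, whereas homeostatic ligands are made steadily by the stroma of lymphoid organs and epithelia. In tumours, ligands of CCR2 draw monocytes, ligands of CXCR3 draw effector T cells, and ligands of CCR4 and CCR8 draw Treg.

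Levels are log2 signal minus the 75th percentile of that array, differences are on the same log2 scale, and a gene is called at a Benjamini-Hochberg adjusted p under 0.05 in limma. Per array, 42.16% to 65.38% of 41174 probes lay well above background, and Pearson correlations across genes between arrays of a group ran from 0.927 to 0.989. The lowest share was on IL10+ replicate 3, which lay alone on its slide. Its 75th percentile signal was also the lowest, at 92.34, against 209.2 to 606.1 on the other arrays. Il10 averaged 4.69 in IL10+, 0.05 in IL10-, 5.30 in total tumour and -0.69 in spleen Treg. The Foxp3 probe was well above background on 3 of 3 arrays in each VERT-X group and on 0 of 3 in both FoxP3-EGFP groups. Spleen replicate 2 stood apart from the other spleen arrays. It had the lowest Il2ra (-3.90, against 0.72 and 1.27) and Il10 (-3.61, against 0.84 and 0.69) and the highest platelet Itga2b (-1.57, against -3.71 and -4.91). Without it 20 ligands were called between total tumour and spleen, among them 18 of the 19 called with it, and the values of ligands that lost or gained a call or moved by over 1.5 times are given both ways.

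The promoters of 4 ligands are shown, picked because they carry short motifs of inducible transcription, so they do not stand for the other ligands. Cxcl1, Cxcl2 and Cxcl10 were higher in tumour than in spleen Treg, and Ccl1 had the largest difference between the IL10 groups but was not called. The sequences are from RefSeq (GRCm38.p6), 250 bases before to 50 bases after the gene start, read 5′ to 3′ on the strand of the gene. Capitals mark matches to the NF-kB consensus or to an interferon-stimulated response element (GAAANNGAAA) on either strand. Cxcl10 lies on the minus strand (chr5:92348840-92349139), as does Ccl1 (chr11:82179763-82180062), whereas Cxcl1 (chr5:90890995-90891294) and Cxcl2 (chr5:90903649-90903948) lie on the plus strand.
Cxcl10: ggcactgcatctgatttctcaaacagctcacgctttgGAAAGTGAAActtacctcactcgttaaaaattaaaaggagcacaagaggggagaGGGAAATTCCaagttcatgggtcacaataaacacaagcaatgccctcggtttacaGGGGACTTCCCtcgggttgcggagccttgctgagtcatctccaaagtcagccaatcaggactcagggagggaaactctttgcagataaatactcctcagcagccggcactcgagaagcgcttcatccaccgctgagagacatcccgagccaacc
Cxcl1: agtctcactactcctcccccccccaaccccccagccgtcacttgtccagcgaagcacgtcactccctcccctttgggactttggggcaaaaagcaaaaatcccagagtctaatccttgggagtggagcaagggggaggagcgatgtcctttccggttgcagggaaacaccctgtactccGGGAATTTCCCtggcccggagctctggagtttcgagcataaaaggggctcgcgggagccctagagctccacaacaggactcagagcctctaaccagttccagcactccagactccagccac
Cxcl2: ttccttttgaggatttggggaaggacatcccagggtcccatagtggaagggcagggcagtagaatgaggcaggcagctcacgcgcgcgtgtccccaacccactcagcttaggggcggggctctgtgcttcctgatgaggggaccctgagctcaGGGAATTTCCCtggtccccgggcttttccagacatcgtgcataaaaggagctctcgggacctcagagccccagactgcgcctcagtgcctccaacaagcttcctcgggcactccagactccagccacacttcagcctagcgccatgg
Ccl1: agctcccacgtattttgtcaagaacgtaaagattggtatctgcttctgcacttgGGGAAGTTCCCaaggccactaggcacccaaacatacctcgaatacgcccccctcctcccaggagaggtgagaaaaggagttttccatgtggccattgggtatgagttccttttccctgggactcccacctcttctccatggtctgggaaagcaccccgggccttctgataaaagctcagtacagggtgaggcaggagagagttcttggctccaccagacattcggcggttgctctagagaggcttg

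The response element of Cxcl10 starts at position -213 from the gene start, and its NF-kB matches start at -159 and -104. In Cxcl1 the NF-kB match starts at -71, in Cxcl2 at -97 and in Ccl1 at -196, and Cxcl1 and Cxcl2 share the same NF-kB letters. Overlapping matches on both strands were counted as 1. Among the 26 ligands with a promoter in the table, 7 held an NF-kB match (Ccl1, Ccl9, Ccl20, Ccl27, Cxcl1, Cxcl2 and Cxcl10) and 3 held the response element (Ccl19, Cxcl10 and Cxcl14). Of the 12 ligands called higher in total tumour than in spleen Treg, 4 held an NF-kB match and 2 the response element. Of the 13 not called or not tested, 2 and 1 did. Across 32851 promoters of the same length, 8.46% held the first and 3.44% the second. These shares are per promoter, whereas a ligand with several promoters counted if any of them held a match. A match describes these letters and does not show a binding site.

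Tumour and spleen Treg differed widely in these genes. Of 35 ligands, 30 were tested, and 18 were called higher and 1 lower in total tumour Treg. Over all 15597 features tested, 22.0% were called higher and 20.3% lower. The median difference was 2.67 over the tested ligands and -0.01 over all features. Testing required a probe well above background on 3 or more arrays. For 13 of the 30 tested ligands no spleen array was well above background, so they entered the test through tumour arrays and their count gives no support of its own. Of the other 17 ligands, detected on at least 1 spleen array, 8 were called higher and 1 lower. Some of these, Ccl3 and Cxcl16 among them, were detected on fewer than 3 spleen arrays and also needed tumour arrays to enter. Of the 14 well above background on all 3 spleen arrays, 6 were called higher and 1 lower. The shares over all features were not limited to features detected in spleen. Ccl20, Ccl22, Ccl28, Cxcl13 and Cxcl15 were not tested, and each was well above background on at most 1 array.

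**Figure D1:**
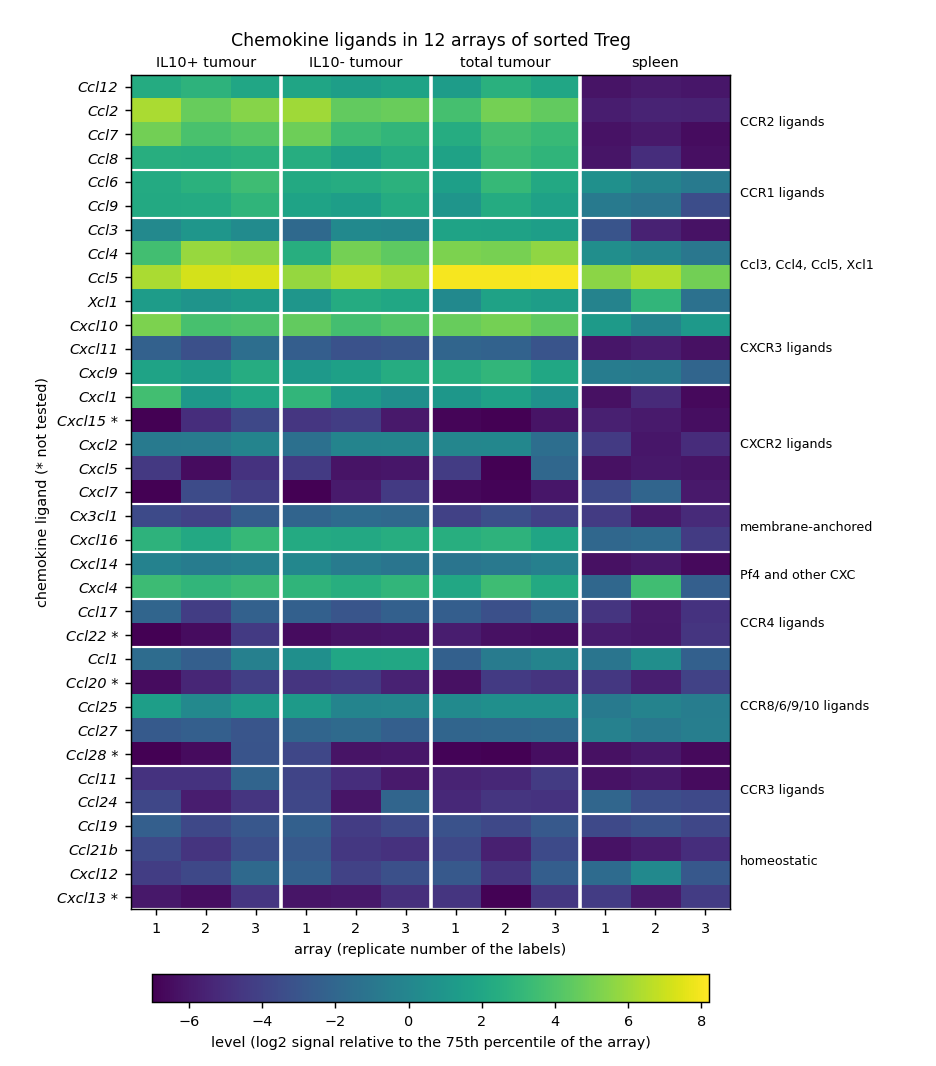
Levels of the 35 chemokine ligands (rows, grouped by receptor, an asterisk marking the 5 not tested) on the 12 arrays (columns, replicates 1 to 3 of each group), as log2 signal minus that of the array's 75th percentile. The CCR2 ligands are bright on all 9 tumour arrays and dark on the 3 spleen arrays, and Cxcl4 is bright on spleen replicate 2 only among the spleen arrays.

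Detection followed the same division. In total tumour Treg 24 ligands were well above background on all 3 arrays, in IL10- tumour Treg 23, in IL10+ tumour Treg 21 and in spleen Treg 14. No array was well above background for 7, 4, 5 and 18 ligands of these groups. In 19 of the 30 tested ligands all 9 tumour arrays lay above all 3 spleen arrays, an order that 22.2% of all features showed. Of these, 11 were among the 13 ligands not well above background on any spleen array, and so had entered the test through tumour arrays. The other 8 were among the other 17, and of those 8, Ccl3 and Cxcl16 also needed tumour arrays to enter.

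The ligands of CCR2, which draw monocytes out of blood, were all 4 called higher in total tumour than in spleen Treg, as were 22.0% of all features. All 4 were among the 13 ligands not well above background on any spleen array. They entered the test through tumour arrays, so this count gives no support of its own. Ccl2, the main ligand of CCR2 (probe at mm8 chromosome 11, 81853343 to 81853402), read 3.69, 5.02 and 4.56 in total tumour Treg and -5.77, -5.50 and -5.57 in spleen Treg. In the VERT-X groups it read 6.29, 4.64 and 5.46 in IL10+ and 6.02, 4.52 and 4.70 in IL10- Treg. No spleen array came near a tumour array. The difference between total tumour and spleen was 10.04 ± 0.51 (SE, adjusted p = 1.58e-06). The spleen probe was not well above background, so the fold is given as a bound, at least 356-fold. Such a bound holds for the main processing only and can be undercut by another background correction. For such a bound the dim probe was given, on each array, its own signal or the smallest signal of any probe well above background, whichever was larger, and the group means were then compared.

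Ccl7, which also attracts monocytes through CCR2, read 2.41, 3.68 and 3.21 in total tumour and -6.26, -5.98 and -6.51 in spleen Treg, a difference of 9.35 ± 0.49 (SE, adjusted p = 1.82e-06) and at least 142-fold. A second Ccl7 probe gave 8.99. Ccl12, a rodent CCR2 ligand, read 1.42, 2.67 and 1.97 in total tumour and -6.17, -5.91 and -6.09 in spleen Treg, with a difference of 8.07 ± 0.31 (SE, adjusted p = 4.75e-07) and at least 67.1-fold. Ccl8, which in mice is also a ligand of CCR8, read 1.75, 3.39 and 2.94 against -6.15, -5.04 and -6.37, with a difference of 8.55 ± 0.45 (SE, adjusted p = 1.79e-06) and at least 107-fold. Over the 9 tumour arrays of all groups, the lowest, median and highest readings were 2.41, 3.68 and 4.95 for Ccl7, 1.42, 1.97 and 2.80 for Ccl12, and 1.73, 2.46 and 3.39 for Ccl8. In each of these genes the tumour and spleen arrays were widely apart, and the spread among tumour arrays was a small part of the gap. With normexp background correction, which raises dim signals, the 4 differences were 6.24 (Ccl2), 5.15 (Ccl7), 4.12 (Ccl12) and 4.58 (Ccl8), and all remained called. Each of these is smaller than the bound given for that gene. The order of these differences among ligands depends on the dim spleen probes, since Ccl4 differed by 4.89 with normexp.

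**Figure D2:**
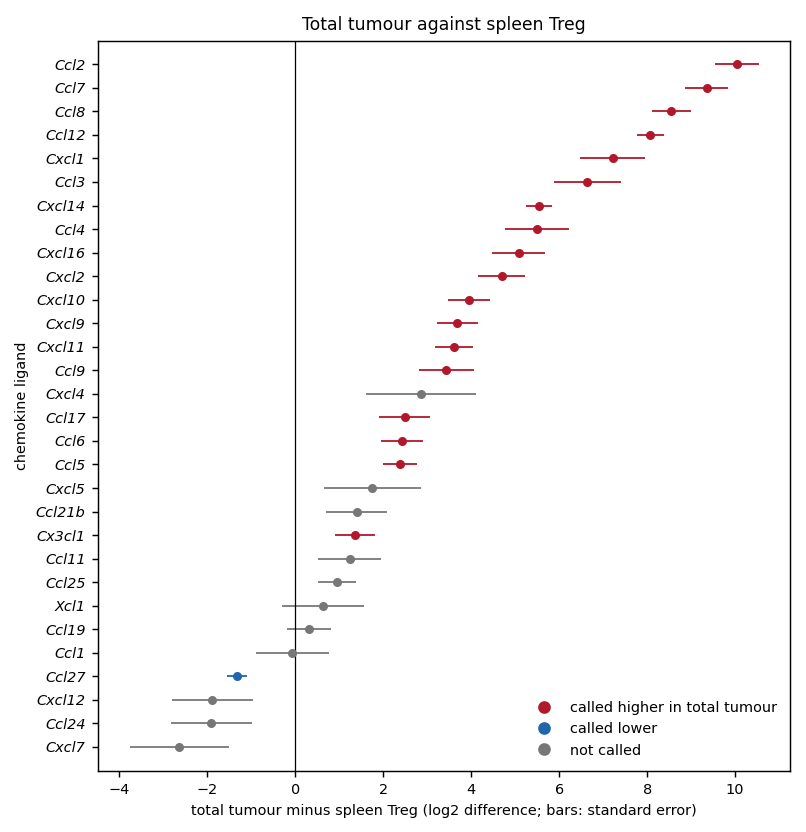
Difference between total tumour and spleen Treg (x axis, log2, points with standard errors) for the 30 tested ligands, ordered by size, 3 arrays per group. Red points were called higher, the blue point (Ccl27) lower and grey points were not called, and the differences of the 4 CCR2 ligands, at 8.07 to 10.04, were measured against spleen probes not well above background.

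Ccl3, Ccl4 and Ccl5, inflammatory ligands that activated T cells and macrophages both make, were higher in tumour Treg as well. Ccl5 was well above background on all 12 arrays. It read 8.01, 7.97 and 8.07 in total tumour and 5.54, 6.45 and 4.94 in spleen Treg, a difference of 2.38 ± 0.39 (SE, adjusted p = 0.000934). Total tumour arrays lay close together and above every spleen array, although the lowest VERT-X readings of Ccl5 overlapped with spleen. Ccl4 read 5.17, 5.08 and 5.69 against 0.52, -0.09 and -0.96 (difference 5.49 ± 0.73 (SE), adjusted p = 0.000294). Ccl3 read 1.80, 1.75 and 1.53 against -3.06, -5.53 and -6.25 (difference 6.64 ± 0.76 (SE), adjusted p = 0.000121), with 1 of 3 spleen arrays well above background. Both of these neighbouring genes had all 9 tumour arrays above the spleen arrays, with VERT-X readings as low as 2.53 for Ccl4 and -1.78 for Ccl3.

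Xcl1, which activated lymphocytes secrete and which attracts XCR1+ dendritic cells, was not called (difference 0.63, adjusted p = 0.628). Its spleen arrays read -0.20, 3.03 and -1.34, so that spleen replicate 2 was above every tumour array. Without that replicate Xcl1 was called higher in total tumour Treg, by 1.89 (adjusted p = 0.0271). The same replicate was also the highest spleen array for the natural killer cell receptor genes Klrb1c (0.87, against -0.93 and -1.41) and Klrk1 (-0.47, against -2.78 and -3.66) and for perforin, Prf1 (2.51, against 0.31 and 0.06). Of the same marker list Eomes was also highest there. Ncr1, another natural killer cell receptor gene, went the other way, at -3.31 on spleen replicate 1 against -4.20 on replicate 2. Cd8a and Cd8b1 were highest on replicate 1 too. The part of natural killer and CD8 T cells in the Xcl1 values was not tested.

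The CXCR3 ligands, induced by interferon and attracting effector T cells, were called higher in tumour Treg in 3 of 3 cases, against 22.0% of all features. Cxcl10 read 4.67, 5.0 and 4.50 in total tumour and 1.30, -0.14 and 1.16 in spleen Treg, a difference of 3.95 ± 0.47 (SE, adjusted p = 0.000151). Cxcl9 read 2.51, 3.03 and 2.05 against -0.64, -0.76 and -2.07, a difference of 3.69 ± 0.46 (SE, adjusted p = 0.000195). Both were detected in spleen on all 3 arrays. Over the 9 tumour arrays Cxcl10 ran from 3.64 to 5.23 (median 4.50) and Cxcl9 from 1.19 to 3.03 (median 2.05), above every spleen array. Cxcl11 was not well above background on any spleen array, so it entered the test through tumour arrays. It had a difference of 3.61 ± 0.43 (SE, adjusted p = 0.000151) and at least 3.03-fold. Its difference was 1.17 with normexp (adjusted p = 0.143). Cxcl10 has the promoter above with the response element and a pair of NF-kB matches.

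Among the neutrophil-attracting CXCR2 ligands, 2 of 4 tested were called higher, against 22.0% of all features. Both, Cxcl1 and Cxcl2, were not well above background on any spleen array and entered the test through tumour arrays. Cxcl1 read 1.07, 1.67 and 0.76 in total tumour and -6.32, -5.21 and -6.60 in spleen Treg, a difference of 7.21 ± 0.73 (SE, adjusted p = 5.84e-05) and at least 37.3-fold. Cxcl2 read -0.01, 0.01 and -1.49 against -4.41, -6.05 and -5.10, a difference of 4.69 ± 0.54 (SE, adjusted p = 0.000125) and at least 11.8-fold. Over the 9 tumour arrays Cxcl1 ran from 0.57 to 3.6, highest on the first replicates of both VERT-X groups, and Cxcl2 from -1.49 to 0.01. These are the adjacent genes whose promoters above hold the same NF-kB letters. Cxcl5 differed by 1.75 (adjusted p = 0.234) and had its readings spread from -7.12 to -1.90 in total tumour Treg. Cxcl7 (Ppbp), which platelets store, differed by -2.63 (adjusted p = 0.0863), and by -1.72 without spleen replicate 2 (adjusted p = 0.277).

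Ccl6 and Ccl9, CCR1 ligands known from rodents and made by myeloid cells, were both higher in tumour Treg. Ccl9 read 0.93, 2.32 and 1.72 against -0.75, -1.16 and -3.42 in spleen, a difference of 3.43 ± 0.63 (SE, adjusted p = 0.00184). Ccl6 read 1.58, 3.18 and 2.16 against 0.61, -0.15 and -0.79, a difference of 2.42 ± 0.48 (SE, adjusted p = 0.00271). The VERT-X readings ran from 1.54 to 2.93 for Ccl9 and from 2.22 to 3.48 for Ccl6, and tumour and spleen arrays did not overlap in either gene. With the slide as a block these calls were lost, at 3.50 for Ccl9 (adjusted p = 0.0534) and 2.28 for Ccl6 (adjusted p = 0.0599).

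The membrane-anchored ligands Cxcl16 and Cx3cl1 act as adhesion molecules on the cell surface and as soluble attractants once cleaved. Cxcl16, the ligand of CXCR6, read 2.5, 2.85 and 1.92 in total tumour and -1.94, -1.66 and -4.35 in spleen Treg, a difference of 5.08 ± 0.61 (SE, adjusted p = 0.000163), and a second probe gave 4.27. All 9 tumour arrays, from 1.92 to 3.19, lay above the spleen arrays. Cx3cl1 (fractalkine) was dim in tumour, at -4.07, -3.37 and -4.09, and not well above background in spleen. Its difference was 1.36 ± 0.45 (SE, adjusted p = 0.0337), at least 1.16-fold, and the call was lost in 9 of 22 alternative settings. Among them was the fit without spleen replicate 2, with a difference of 0.94 (adjusted p = 0.118).

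Cxcl14, a CXC ligand of epithelia and fibroblasts, read -1.11, -0.85 and -0.41 in total tumour and was not well above background in spleen, with a difference of 5.53 ± 0.29 (SE, adjusted p = 1.82e-06) and at least 9.61-fold. Cxcl4 (platelet factor 4), stored in platelets and also made by some macrophages, read 2.12, 3.46 and 2.23 in total tumour and -1.94, 3.56 and -2.39 in spleen Treg. Spleen replicate 2 was the highest of all 12 arrays. With it the difference was 2.86 (adjusted p = 0.0925), and without it 4.77 (adjusted p = 4.81e-05). On the same spleen replicate the platelet glycoprotein genes Gp9 (-1.34) and Gp1bb (-2.24) read highest of the 12 arrays, and Cxcl7 did too (-2.06). The part of platelets in these values was not tested.

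Ligands that draw Treg gave a mixed record. Ccl8, a CCR8 ligand as well, was called higher as given above. Ccl17, a CCR4 ligand of dendritic cells, read -2.44, -3.31 and -2.15 in total tumour and was not well above background in spleen, a difference of 2.49 ± 0.58 (SE, adjusted p = 0.00702) and at least 2.67-fold. Normexp gave 0.79 (adjusted p = 0.375). Ccl22, the other CCR4 ligand, was not well above background on any array. Ccl1, another ligand of CCR8, which activated T cells make, differed by -0.07 (adjusted p = 0.96), and its groups overlapped. Without spleen replicate 2 its sign turned, to 0.68 (adjusted p = 0.564).

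Ccl27, a CCR10 ligand of skin keratinocytes, was the only one of the 30 tested ligands called lower. It read -2.03, -1.90 and -1.82 in total tumour and -0.32, -0.93 and -0.49 in spleen Treg, a difference of -1.33 ± 0.23 (SE, adjusted p = 0.00125). All 9 tumour arrays, from -3.01 to -1.77, lay below the spleen arrays. The difference was -0.70 with normexp (adjusted p = 0.418). Ccl25, the CCR9 ligand of thymus and gut, differed by 0.94 (adjusted p = 0.104).

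The homeostatic ligands of lymphoid stroma and the CCR3 ligands of eosinophils had no call in either direction. Cxcl12, the CXCR4 ligand, read -2.74, -4.72 and -2.43 in total tumour and -1.69, 0.24 and -2.80 in spleen Treg, a difference of -1.88 (adjusted p = 0.127), or -1.05 without spleen replicate 2 (adjusted p = 0.395). Ccl19, a CCR7 ligand, differed by 0.31 (0.50 without that replicate) and Ccl21b, the other CCR7 ligand, by 1.40, with 0 of 3 spleen arrays above background for the latter. Ccl11 and Ccl24 (eotaxins) differed by 1.23 and -1.91. Their adjusted p-values ran from 0.121 to 0.666.

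Many of these genes lie in clusters, and the order of probes on mm8 shows how far neighbours shared a difference. On chromosome 11 the CCR2 ligands Ccl2, Ccl7, Ccl12 and Ccl8 lie within a run that also holds Ccl11 and Ccl1. Ccl11, which was not called, lies 15.6 kb from Ccl7 and 40.6 kb from Ccl12. Ccl1, 60.2 kb beyond Ccl8 and on the opposite strand, differed by -0.07 beside 8.55 for Ccl8. In a second run, 1349 kb further on, Ccl5, Ccl9, Ccl6, Ccl3 and Ccl4 were all called higher. On chromosome 5 the neighbours Cxcl9, Cxcl10 and Cxcl11 differed by 3.61 to 3.95, whereas Cxcl5, Cxcl7 and Cxcl4, which lie near Cxcl1 and Cxcl2, were not called.

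**Figure D3:**
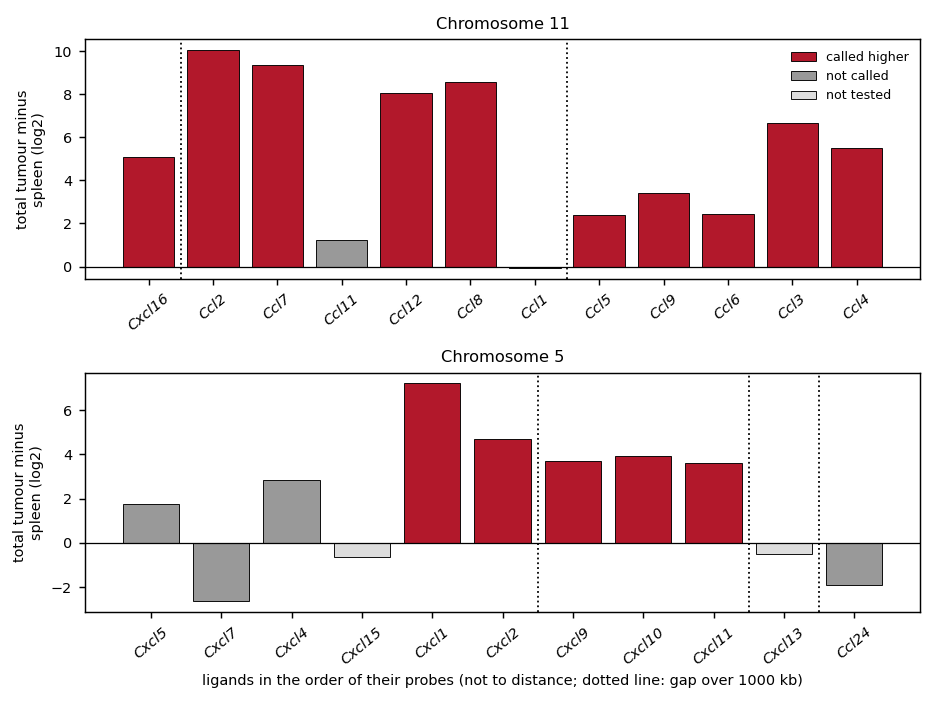
Difference between total tumour and spleen Treg (y axis, log2, from 0) of the ligands on chromosomes 11 (top) and 5 (bottom), in the order of their probes, which is not to distance; dotted lines mark gaps over 1000 kb. Red bars were called higher, dark grey bars were not called and light grey bars were not tested, and Ccl11 and Ccl1 stand low beside the tall bars of the CCR2 ligands.

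Arrays of total tumour and spleen Treg shared 1 slide, with total tumour replicate 3 beside the 3 spleen arrays. Within it the difference was, for example, 10.17 for Ccl2, 2.43 for Ccl5 and -1.24 for Ccl27. All 19 called ligands kept their direction, but this was fixed beforehand and gives no support of its own. In each of them the total tumour and spleen arrays did not overlap, and the slide reuses those same arrays.

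Markers of other cells differed between the same groups. Of 12 macrophage and monocyte markers, 11 were called higher in total tumour than in spleen Treg, with a median difference of 2.13. Their log2 summed level was 8.48 to 9.41 in total tumour, 8.98 to 9.74 in IL10+, 8.67 to 9.22 in IL10- and 5.42 to 6.70 in spleen Treg, and Trem2 was not well above background in spleen. All 7 fibroblast markers were called higher, at 6.49 to 6.93 in total tumour against -1.67 to 1.63 in spleen Treg, where Lum, Pdgfra and Pdgfrb were not well above background. B cell markers were lower in 6 of 6 cases, at 1.39 to 1.82 against 5.45 to 6.37. Of 7 markers of CD8 T cells and natural killer cells 4 were lower and none higher, with a median difference of -1.11 and sums of 3.32 to 3.50 against 3.85 to 4.49. Without spleen replicate 2, a refit of the marker and receptor lists chosen after seeing the data, 2 of these 7 were lower and 2 higher, 9 macrophage and monocyte markers and 6 fibroblast markers were called higher, and all 6 B cell markers were still lower. Among platelet and erythroid markers 3 of 4 tested were lower, at -0.35 to 3.83 against 9.40 to 10.66. The remaining lists were mixed or smaller. With all arrays, dendritic cell markers had 1 higher and 3 lower of 6 tested, and endothelial markers 1 higher and 1 lower of 5. Epithelial tumour markers had 2 higher of 3 tested, and of 5 neutrophil markers none was called. Without spleen replicate 2 the dendritic list had 1 higher and 2 lower, the endothelial list 1 lower and the epithelial list 1 higher. The part of such cells in the ligand differences was not tested, and in sorted bulk samples fewer cells of a type and less RNA per cell cannot be told apart.

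**Figure D4:**
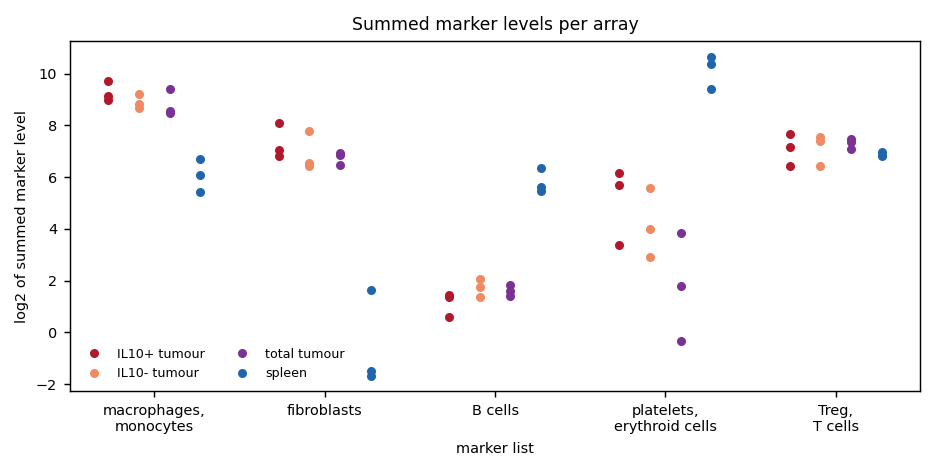
Log2 of the summed level of each marker list (x axis) on every array (points, coloured by group, 3 arrays each). Macrophage and fibroblast sums are higher on the 9 tumour arrays than on the 3 spleen arrays, and B cell and platelet or erythroid sums are lower. The Treg and T cell sums lie between 6.42 and 7.67 on all 12 arrays but do not follow the Treg genes alone. Spleen replicate 2 has the highest spleen sum (6.98) with the lowest spleen Il2ra (-3.90), Ikzf2 (-3.40) and Ctla4 (-0.89).

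The receptors through which these ligands act were measured in the same arrays. Of 17 conventional receptors listed here 16 were tested, of which 5 were called higher and 3 lower in total tumour than in spleen Treg. Over all features 22.0% were higher and 20.3% lower, so these counts lie near the background. Cx3cr1, the receptor of Cx3cl1, was higher by 3.98 (adjusted p = 0.000643). Ccr8, the receptor of Ccl1 and a marker of tumour Treg, was higher by 3.73 (adjusted p = 0.0168). Cxcr6, the receptor of Cxcl16, was higher by 2.78 (adjusted p = 0.0353). Ccr2 was higher by 3.51 and Ccr3 by 1.75. Cxcr5, the receptor of Cxcl13, was lower, at -4.97 (adjusted p = 6.83e-06), as were Ccr9, the receptor of Ccl25, at -4.68 and Ccr7, the receptor of Ccl19, at -1.34. All 8 kept their calls without spleen replicate 2, with Ccr8 at 2.53 (adjusted p = 0.046), Cxcr6 at 4.19 (adjusted p = 1.78e-05), Ccr3 at 1.18 (adjusted p = 0.0418) and Ccr7 at -0.92 (adjusted p = 0.0458). Ccr6, the receptor of Ccl20, was called lower only without it, at -2.13 (adjusted p = 0.0373) against -1.38 (adjusted p = 0.164). Of 4 atypical receptors, which bind ligands without the usual signalling, 3 were tested and Ackr2 was lower, by -3.23 (adjusted p = 0.00258).

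IL10+ and IL10- tumour Treg differed in no ligand at the threshold. Among all features 0.0513% were called in this comparison, 8 features in all, and none of the 30 tested ligands was among them by limma. At an unadjusted p under 0.05 there were 3 of the 30 ligands and 725 of all 15597 features. The median difference was 0.37 over the tested ligands, positive in 23 of 30, and -0.04 over all features. On the slide that held IL10+ replicate 2 and the 3 IL10- arrays, the difference was positive in 11 of 30, with a median of -0.24, and 12 of the 30 ligands had the opposite sign to that over all arrays. Macrophage and monocyte markers had a median difference of 0.42, positive in 12 of 12 with none called. The part of macrophage RNA in the ligand values was not tested.

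Ccl1 had the smallest p. It read -1.66, -2.41 and -0.41 in IL10+ and 0.57, 1.99 and 2.12 in IL10- Treg. Every IL10- array lay above every IL10+ array. Total tumour Treg read -2.32, -0.68 and -0.11 and spleen Treg -1.07, 0.51 and -2.36. The difference between IL10+ and IL10- Treg was -3.05 ± 0.84 (SE, adjusted p = 0.652). The receptor Ccr8 read 2.95 ± 1.47 (SD, n = 3) in IL10+ and 3.58 ± 1.26 (SD, n = 3) in IL10- Treg, a difference of -0.63 (adjusted p = 1).

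Cx3cl1 read -3.56, -3.97 and -2.56 in IL10+ and -2.10, -1.70 and -1.88 in IL10- Treg, again without overlap, with a difference of -1.47 ± 0.45 (SE, adjusted p = 0.83). With normexp its sign turned, to 0.32. Ccl27 differed by -0.62 ± 0.23 (SE, adjusted p = 0.977) and Ccl5 by 0.82 ± 0.39 (SE, adjusted p = 1), and their signs turned too, to 0.52 and -0.18. Ccl12 was the third ligand whose groups did not overlap, with 2.36, 2.80 and 1.98 in IL10+ and 1.92, 1.54 and 1.82 in IL10- Treg. Such separation was seen in 7.41% of all features. The CCR2 ligands Ccl2 (0.39) and Ccl7 (0.56) had overlapping groups. Without IL10+ replicate 3 the differences were -3.59 for Ccl1, -1.87 for Cx3cl1, -0.47 for Ccl27 and 0.63 for Ccl5, and none was called.

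Within that shared slide the difference was -3.97 for Ccl1, -2.08 for Cx3cl1, -0.31 for Ccl27 and 1.09 for Ccl5, each of the same sign as over all arrays, and -0.44 for Ccl2, of the opposite sign. Replicate 1 of both VERT-X groups stood apart from replicates 2 and 3. It had the highest Ccl2 (6.29 in IL10+ and 6.02 in IL10-) and Ccl7 (4.95 and 4.83) of its group and also the highest summed fibroblast markers (8.08, against 6.83 and 7.06, and 7.77, against 6.42 and 6.55) and the lowest Cd3e (1.73, against 5.87 and 4.8, and 2.08, against 5.68 and 5.48). The part of fibroblast RNA in these values was not tested.

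**Figure D5:**
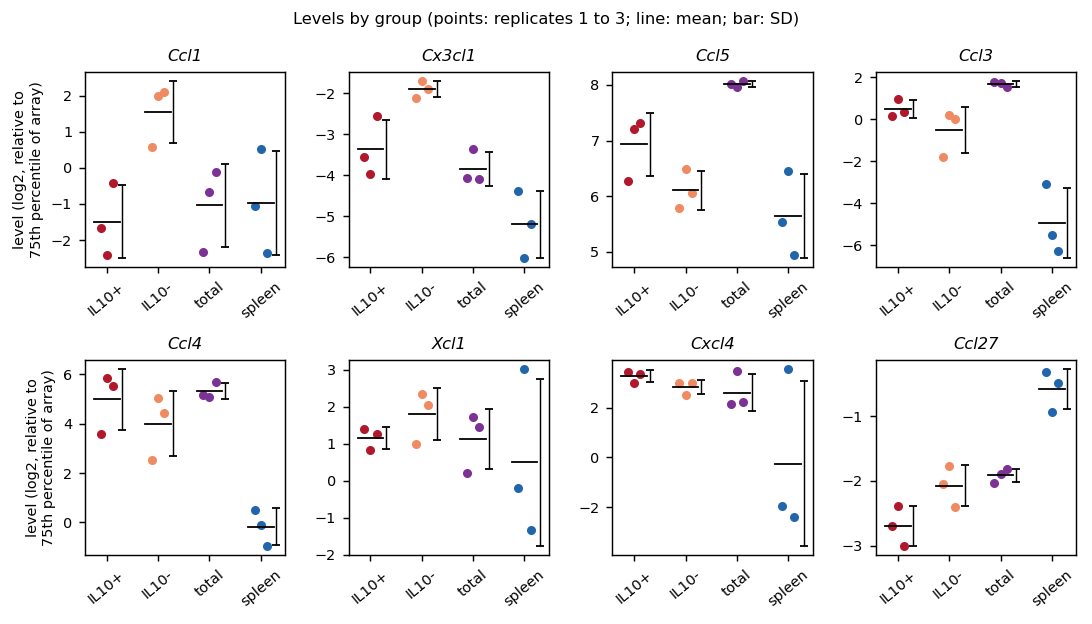
Levels of 8 ligands (y axes, log2 signal minus that of the array's 75th percentile) in the 4 groups, with points for replicates 1 to 3, a line for the mean and a bar for the SD (n = 3). Ccl1 and Cx3cl1 are higher on every IL10- array than on every IL10+ array without passing the test, Ccl5 is tight and highest in total tumour Treg, and the spleen values of Xcl1 and Cxcl4 are spread by replicate 2.

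The VERT-X groups were then set against total tumour Treg, which both comparisons share as control. No ligand was called in either, by limma, where 0.192% of all features were called for IL10+ and 0.301% for IL10- Treg. At an unadjusted p under 0.05 there were 3 of 30 tested ligands for IL10+ and 4 of 30 for IL10- Treg. Over all 15597 features there were 2621 and 2426, so the ligands did not exceed the share over all features. The T cell attractant Ccl5 came nearest. It read 5.79, 6.49 and 6.05 in IL10- and 6.28, 7.2 and 7.32 in IL10+ Treg, against the total tumour readings given above. The difference was -1.91 ± 0.39 (SE, adjusted p = 0.0759) for IL10- and -1.09 ± 0.39 (SE, adjusted p = 0.206) for IL10+ Treg. The first was called without IL10+ replicate 1 (adjusted p = 0.0385) or without spleen replicate 2 (adjusted p = 0.0413), arrays that enter only through the shared estimate of spread.

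Ccl3 read -1.78, 0.20 and 0.04 in IL10- Treg, below total tumour Treg by -2.21 ± 0.76 (SE, adjusted p = 0.209). In the same comparison Cx3cl1 differed by 1.95 ± 0.45 (SE, adjusted p = 0.0966) and Ccl1 by 2.59 ± 0.84 (SE, adjusted p = 0.185). For IL10+ Treg, Ccl27 differed by -0.78 ± 0.23 (SE, adjusted p = 0.148), Ccl7 by 1.21 ± 0.49 (SE, adjusted p = 0.254) and Ccl2 by 1.04 ± 0.51 (SE, adjusted p = 0.329). Without IL10+ replicate 1 the last values were 0.89 for Ccl7 and 0.63 for Ccl2. On the slide that held IL10+ replicate 1 with total tumour replicates 1 and 2, the differences were -0.74 for Ccl27, 1.91 for Ccl7, 1.94 for Ccl2 and -1.71 for Ccl5. IL10- and total tumour arrays shared no slide, so slide and group cannot be told apart for them.

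Dim ligands were given by their range alone. Over the 12 arrays Ccl20 ran from -6.48 to -3.99, Ccl22 from -7.34 to -4.39 and Cxcl13, the B cell attractant of follicles, from -6.89 to -4.29. Ccl28, a mucosal ligand, and Cxcl15, a lung ligand of mice, were each well above background on 1 array, an IL10- array.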

How the data were processed

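The arrays measured total RNA of sorted Treg. The deposited scanner files hold the spot intensity of each array from Agilent Feature Extraction 9.5.3.1, background-subtracted within the array, per the file headers. The authors' deposited value table is on a log10 scale, as set by its correlation with log10 of the processed intensity (Pearson r 0.9952 to 0.9999), with a normalization not given in the sources used here. Per the labels the cRNA was labelled with biotin, whereas the headers describe 1 scanned channel, and this was not settled.

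Flagged and control spots were left out and spots of a probe averaged, from 43379 spots to 41174 probes. The deposited intensity was put on a log2 scale and the array's 75th percentile subtracted. Genes were taken by the file's gene name, each by its brightest probe, and 15597 features well above background on at least 3 arrays were fitted with limma 3.58.1 in R 4.3.3 (lmFit, eBayes, 12 arrays, 4 groups, Benjamini-Hochberg). The limited number of arrays sets the precision. The steps were tested on simulated data.

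RefSeq GRCm38.p6 served for names (35 ligands matched, 33 by accession) and promoters, and probe coordinates are mm8, per the file headers. Exon positions of the probes were not analysed here. Labels give separate experiments, but p-values measure only the spread between these samples. Differences with a test are given for called ligands and, where fewer than 4 were called, for the 4 with the smallest p. Other ligands named with a difference were chosen after their values were seen. The ligands, their grouping, the receptor lists and the marker lists were chosen with earlier results of these data known. Of the planned receptor list, 1 gene is not reported here. Alternatives covered background correction, quantile normalization, the deposited value table, filters, probe choice, the arrays fitted, slide and replicate blocks and leaving out each array. Python 3.11.15 with matplotlib 3.10.9 was used for figures.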

Additional observations from a re-analysis of the deposited data

How the results depend on the processing

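Between total tumour and spleen Treg 19 ligands were called. The number called was 15 with normexp background correction (offset 50), 17 with the slide as a block (16 of the 19, and Cxcl5), 18 without the detection filter, 20 with quantile normalization, 22 with only the 6 arrays compared, 19 with the deposited value table, and 18 to 20 with 1 array left out. Of 418 refits of the 19 ligands, 404 kept direction and call, 14 kept direction only (9 of them Cx3cl1, the others Ccl6 and Ccl9 with the slide block and Ccl17, Ccl27 and Cxcl11 with normexp). Between the VERT-X groups, normexp reversed Cx3cl1 (0.321), Ccl27 (0.524) and Ccl5 (-0.179), and against total tumour Treg it reversed Ccl27 in IL10+ Treg (0.3). The cause was not tested. For IL10- against total tumour Treg the number of ligands called ran from 0 to 1 with 1 array left out, and the 1 was Ccl5.

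By the criterion of every correlation over 0.1, replicate numbers were not taken to pair the samples. Deviations of same-numbered arrays correlated at 0.415, 0.428 and -0.235 between IL10+ and IL10- Treg (differently numbered arrays -0.569 to 0.299) and at -0.0161, 0.0808 and 0.000418 between total tumour and spleen Treg. With the replicate number as a block 18 ligands were called between tumour and spleen, against 19 without it, and 0 in each other comparison.

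Signal over background limits the dim probes. Where spleen arrays were not well above background, the size of a difference is uncertain. The bounds given hold for the main processing only, and normexp took the CCR2 ligands below theirs.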
